A study of Homo sapiens with 15 samples.

Results

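The genes described here are 10 that encode chaperones of the endoplasmic reticulum (ER) or belong to the unfolded protein response, measured in MCF-10A cells depleted of eIF3e. They were taken by symbol: HSPA5, HSP90B1, PDIA3, PDIA4, PDIA6, P4HB, CALR, CANX, HERPUD1 and XBP1. All 10 were present among the 56475 symbols of the total RNA table and among the 20248 symbols of the ribosome footprint table. All 10 also passed the filter on low counts in each test. MCF-10A is a non-tumorigenic line of human mammary epithelial cells, and eIF3e belongs to eIF3, the multi-subunit initiation factor through which the small ribosomal subunit is recruited to mRNA. Cells received eIF3e siRNA or control siRNA at 20 nM for 72 h in the same medium, which contained hydrocortisone, insulin, EGF and serum. For each siRNA there were 3 libraries of total RNA and 3 of ribosome-protected fragments, which were 26 to 34 nt long. The remaining 3 of the 15 libraries hold footprints of eIF3B-bound ribosomes, of eIF3E-bound ribosomes and of total lysate, with 1 library each and no siRNA named in their own labels. All material comes from 1 cell line, and no source used here gives the siRNA sequences.

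Proteins that enter the secretory pathway fold in the ER with the help of the Hsp70 chaperone BiP (HSPA5), the Hsp90 chaperone GRP94 (HSP90B1), disulfide isomerases and the lectins calnexin and calreticulin. When unfolded proteins accumulate there, the sensors PERK, IRE1 and ATF6 start the unfolded protein response. PERK slows initiation and favours translation of ATF4, IRE1 splices the XBP1 mRNA into the form that encodes an active transcription factor, and ATF6 is cleaved into one. XBP1 and ATF6 are known to act through ER stress response elements in the promoters of chaperone genes, and HERPUD1, a membrane protein of ER-associated degradation, is also a known target of the response.

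After eIF3e siRNA most of the chaperone mRNAs were higher, while HERPUD1 and XBP1 were lower. In total RNA 6 of the 10 mRNAs rose (HSPA5, HSP90B1, PDIA3, PDIA4, PDIA6 and CALR) and 2 fell (HERPUD1 and XBP1), beside 18.8% higher and 18.7% lower among all 11719 genes tested. In footprints 5 rose (HSP90B1, PDIA3, PDIA4, PDIA6 and CALR) and 1 fell (HERPUD1), beside 10.0% higher and 8.46% lower among 9228 genes. P4HB and CANX passed the test in neither assay. The median log2 change, eIF3e siRNA over control siRNA, of the 10 genes was 0.35 in total RNA and 0.342 in footprints, where the medians of all genes tested were 0.016 and −0.007. A gene counts as changed where edgeR's quasi-likelihood test gave a Benjamini-Hochberg adjusted p below 0.05 over all genes of its assay. Changes are log2 values ± SE with n = 3 per group. Whether the replicates came from separate cultures is not labelled, and the p-values therefore cover the spread among the sequenced libraries only. In such bulk samples fewer cells that express a gene and less RNA per cell cannot be told apart.

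EIF3E, the target of the siRNA, was measured first as a check of the labels. Levels are counts scaled to a common library size (CPM) with TMM factors, which set most genes to a common level. After eIF3e siRNA its mRNA stood at 20.5, 21.3 and 25.8 CPM, against 197, 217 and 187 CPM in the control libraries, which is 11.3% of control in the fit (log2 −3.15 ± 0.12, edgeR adjusted p = 1.61e-10). Library totals ranged over 4263767 to 5646270 counts in total RNA, 1889543 to 3447360 counts in the footprints of the siRNA groups, and 1224606 to 1630872 counts in the single libraries. Markers of basal mammary epithelium (KRT5, KRT14 and 8 others) summed to 10500 to 11100 CPM in total RNA after eIF3e siRNA, against 11400 to 12300 CPM in control. Fibroblast markers summed to 50.3 to 54.1 CPM after eIF3e siRNA and 29.9 to 39.3 CPM in control, with COL1A2 at 0 in all 6 libraries, and COL3A1 and LUM at 0 in all control libraries. Markers of endothelium summed to 0.873 to 1.11 CPM after eIF3e siRNA and 1.36 to 1.83 CPM in control, those of blood to 72.4 to 84.2 CPM after eIF3e siRNA and 44 to 79.1 CPM in control, and those of luminal epithelium to 86.6 to 148 CPM after eIF3e siRNA and 127 to 145 CPM in control. The part of these levels in the results below was not tested.

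The promoters of most of these genes hold the letters to which the response is known to be wired, which is why the stretches around them are shown. RefSeq promoters (GRCh38.p14, 250 bases before to 50 bases after each annotated start) were found for 9 of the 10 genes, all but PDIA3. They were searched on both strands for the ER stress response element ERSE, written as CCAAT, 9 bases of any kind and CCACG, and for ERSE-II, written as ATTGG, 1 base and CCACG. ERSE was found for HSPA5, HSP90B1, PDIA6, CALR, CANX and XBP1, and ERSE-II for HERPUD1. PDIA4 and P4HB held neither spelling in these windows. Both spellings end in CCACG, and none of these promoters held both. Among all 35116 promoters of 27305 genes, 0.0769% held ERSE and 0.0541% held ERSE-II. By gene these were 25 genes, or 0.0916%, and 19 genes, or 0.0696%. The spellings were searched because they are known elements of such promoters. Matches in these genes were therefore to be anticipated, and the shares of all promoters are no test of enrichment. A match is a string of letters and not a measured binding site. The sequences follow 5′ to 3′ on the strand of the gene, with the paired parts in capitals and up to 20 bases on each side.
HSPA5 (chr9:125241371-125241429, minus strand): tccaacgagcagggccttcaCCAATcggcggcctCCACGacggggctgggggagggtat
HSP90B1, far copy (chr12:103930196-103930254, plus strand): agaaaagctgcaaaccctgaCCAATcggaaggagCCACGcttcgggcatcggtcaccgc
HSP90B1, near copy (chr12:103930301-103930359, plus strand): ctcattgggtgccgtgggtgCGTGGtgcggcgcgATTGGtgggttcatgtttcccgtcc
PDIA6 (chr2:10812833-10812891, minus strand): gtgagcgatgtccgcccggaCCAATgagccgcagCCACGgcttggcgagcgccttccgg
CALR (chr19:12938364-12938422, plus strand): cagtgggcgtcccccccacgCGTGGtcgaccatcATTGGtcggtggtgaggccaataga
CANX (chr5:179698778-179698796, plus strand): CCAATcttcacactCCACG
XBP1 (chr22:28800583-28800641, minus strand): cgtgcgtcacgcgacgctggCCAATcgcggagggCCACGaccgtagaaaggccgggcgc
HERPUD1 (chr16:56932005-56932055, plus strand): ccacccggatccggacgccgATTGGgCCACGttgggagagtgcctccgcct
The HSPA5 match lies 66 to 48 bases before the start, that of XBP1 52 to 34 bases before the first of its starts, and that of PDIA6 86 to 68 bases before the second of its starts. HSP90B1 carries the element in both orientations, 194 to 176 and 89 to 71 bases before its start, and the nearer copy reads as CGTGG and ATTGG because it lies on the opposite strand. The CALR match is also on the opposite strand, 225 to 207 bases before the start. For CANX the match is shown alone, 151 to 133 bases before its first start, and the windows of some other CANX starts cover the same letters. The HERPUD1 match, 117 to 107 bases before the start, pairs its parts across a single base.

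HSPA5 encodes BiP, the Hsp70 chaperone of the ER lumen, which binds hydrophobic stretches of nascent proteins and also holds the sensors inactive. HSPA5 mRNA was at 1423, 1390 and 1270 CPM after eIF3e siRNA, against 1266, 1067 and 1017 CPM in control. The groups did not overlap, but the lowest eIF3e siRNA library lay beside the highest control library. The mRNA rose by 0.29 ± 0.10 (edgeR adjusted p = 0.0412). The call was lost in 5 of the 6 fits that each left out 1 library (adjusted p of 0.0626 to 0.172), the exception being control library 1. HSPA5 footprints were at 5125, 4818 and 5315 CPM after eIF3e siRNA, against 5281, 4229 and 3907 CPM in control, so the groups overlapped through control library 1. Their change of 0.19 ± 0.12 did not pass the test (95% interval −0.05 to 0.42, edgeR adjusted p = 0.307). Without control library 1 it was 0.32 ± 0.09 (edgeR adjusted p = 0.0132).

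HSP90B1 encodes GRP94, the Hsp90 chaperone of the ER, whose known clients include integrins and Toll-like receptors. Its mRNA was at 611, 566 and 551 CPM after eIF3e siRNA, against 452, 414 and 349 CPM in control, and rose by 0.51 ± 0.11 (edgeR adjusted p = 0.00158). Its footprints were at 3121, 2800 and 2910 CPM after eIF3e siRNA, against 2051, 1566 and 1487 CPM in control. Every eIF3e siRNA library lay above every control library in both assays. The footprints rose by 0.79 ± 0.12 (edgeR adjusted p = 1.21e-05), which placed HSP90B1 above 88.3% of the genes tested in footprints.

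**Figure D1:**
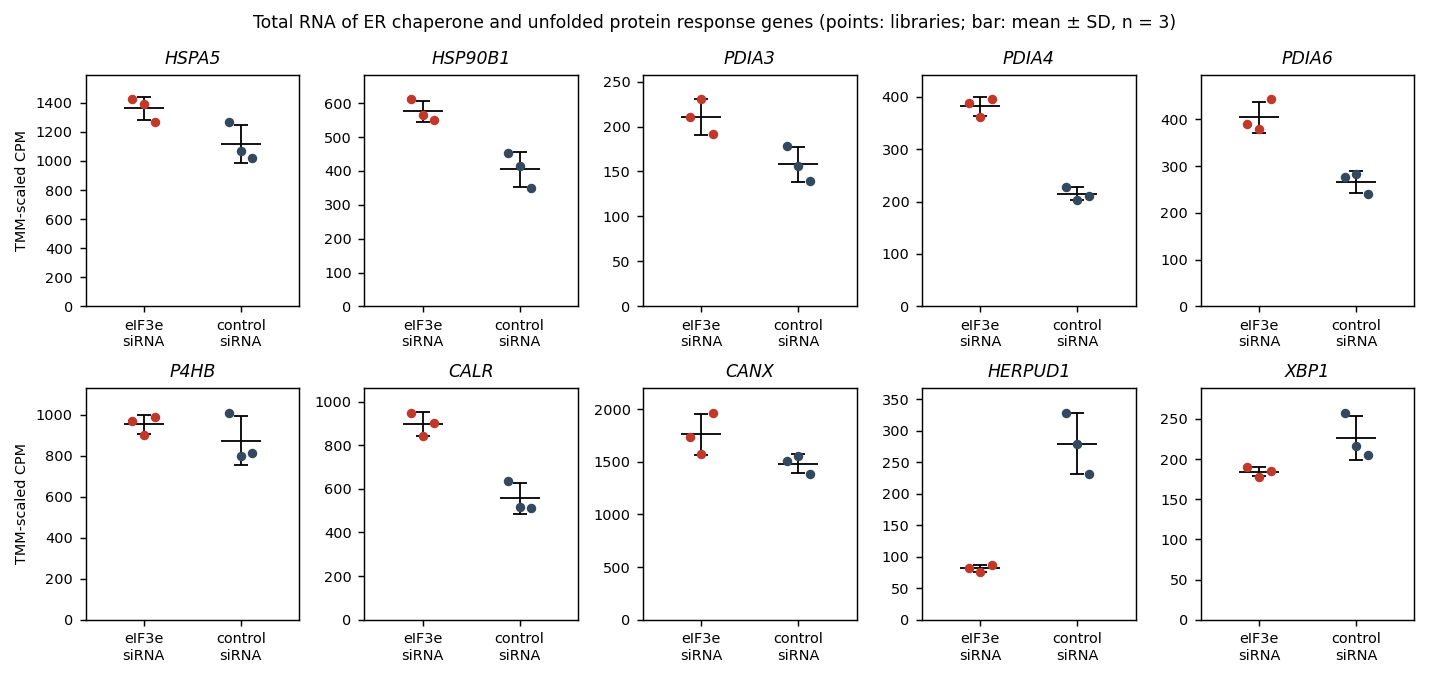
Total RNA level of each gene in TMM-scaled CPM (vertical axes, each from 0), with 1 point per library and the mean ± SD of 3 libraries, eIF3e siRNA left of control siRNA. HERPUD1 is far below control, at 76.1 to 87.0 CPM after eIF3e siRNA against 231 to 329 CPM in control, while P4HB is the gene whose groups overlap.

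The protein disulfide isomerases form and rearrange disulfide bonds, and 3 of the 4 measured here rose in both assays. PDIA3 (ERp57) works with calnexin and calreticulin on glycoproteins. Its mRNA was at 211, 230 and 191 CPM after eIF3e siRNA, against 179, 156 and 140 CPM in control, a rise of 0.41 ± 0.11 (edgeR adjusted p = 0.00839). That call was lost without eIF3e siRNA library 2 (edgeR adjusted p = 0.0537). PDIA3 footprints were at 1002, 1007 and 999 CPM after eIF3e siRNA, against 549, 489 and 506 CPM in control. The 3 eIF3e siRNA libraries were nearly level with each other, and all lay far above control. The footprints rose by 0.96 ± 0.11, or 1.95-fold (edgeR adjusted p = 1.81e-07), the largest rise among the 10 genes in either assay.

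PDIA4 (ERp72) is a disulfide isomerase with an additional thioredoxin-like active domain. PDIA4 mRNA was at 388, 362 and 395 CPM after eIF3e siRNA, against 228, 204 and 212 CPM in control, the largest mRNA rise of the 10 genes at 0.83 ± 0.10 (edgeR adjusted p = 7.82e-06). PDIA4 footprints were at 917, 913 and 952 CPM after eIF3e siRNA, against 570, 496 and 479 CPM in control, and rose by 0.85 ± 0.12 (edgeR adjusted p = 1.99e-06). RNA and footprints of PDIA4 thus differed from control by nearly the same factor. PDIA6 (P5) is an isomerase that is known to act on clients of BiP and on the sensor IRE1. Its mRNA was at 391, 380 and 443 CPM after eIF3e siRNA, against 277, 282 and 240.0 CPM in control, a rise of 0.60 ± 0.10 (edgeR adjusted p = 0.000295). PDIA6 footprints were at 992, 969 and 1073 CPM after eIF3e siRNA, against 769, 592 and 695 CPM in control, a rise of 0.56 ± 0.12 (edgeR adjusted p = 0.000809). Neither gene's groups overlapped in either assay.

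P4HB is the founding protein disulfide isomerase and the beta subunit of collagen prolyl 4-hydroxylase. Its mRNA was at 969, 902 and 992 CPM after eIF3e siRNA, against 1011, 798 and 815 CPM in control. Its footprints were at 1661, 1531 and 1916 CPM after eIF3e siRNA, against 1706, 1602 and 1503 CPM in control. The groups overlapped in both assays. The changes were 0.13 ± 0.11 in total RNA (95% interval −0.10 to 0.35, edgeR adjusted p = 0.378) and 0.09 ± 0.11 in footprints (−0.15 to 0.32, adjusted p = 0.679). These intervals leave out the rises fitted for PDIA4, in total RNA and in footprints, but the difference between the genes was not tested.

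**Figure D2:**
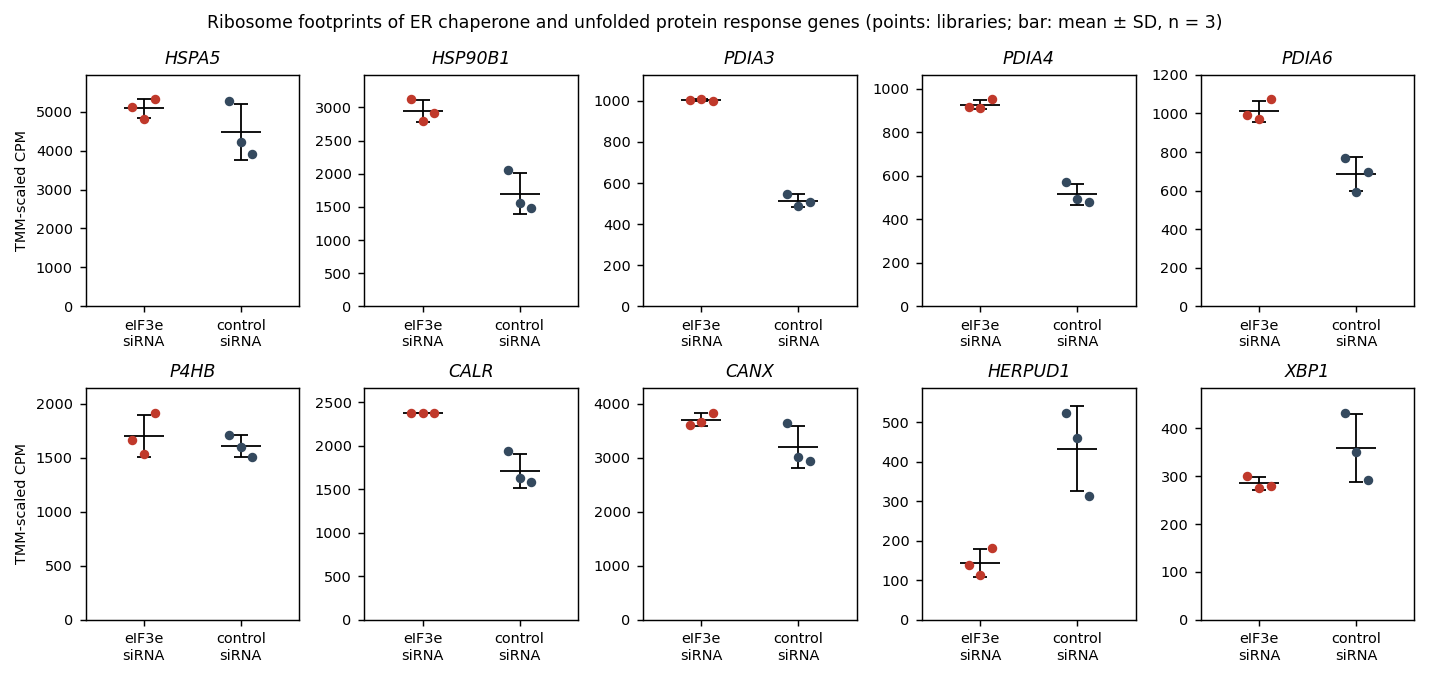
Footprint level of each gene in TMM-scaled CPM (vertical axes, each from 0), with 1 point per library and the mean ± SD of 3 libraries, eIF3e siRNA left of control siRNA. PDIA3 is at 999 to 1007 CPM after eIF3e siRNA and 489 to 549 CPM in control, and control library 1 is the highest control point in all 10 panels.

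CALR and CANX encode calreticulin and calnexin, the lectins that retain monoglucosylated glycoproteins until they fold. Calreticulin is soluble in the lumen and calnexin is its membrane-bound relative. CALR mRNA was at 949, 840.1 and 903 CPM after eIF3e siRNA, against 638, 517 and 513 CPM in control, and rose by 0.69 ± 0.11 (edgeR adjusted p = 0.000118). CALR footprints were at 2375, 2370.0 and 2378 CPM after eIF3e siRNA, against 1935, 1626 and 1576 CPM in control, and rose by 0.47 ± 0.11 (edgeR adjusted p = 0.00263). In both assays all eIF3e siRNA libraries were above all control libraries. Without control library 2 the footprint call was lost by a small margin (edgeR adjusted p = 0.0503).

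CANX mRNA was at 1739, 1577 and 1968 CPM after eIF3e siRNA, against 1511, 1555 and 1383 CPM in control. CANX footprints were at 3611, 3663 and 3834 CPM after eIF3e siRNA, against 3643, 3005 and 2933 CPM in control. The mRNA groups lay side by side without overlap, and the footprint groups overlapped through control library 1. The changes of 0.25 ± 0.10 in total RNA (95% interval 0.03 to 0.47, edgeR adjusted p = 0.0701) and 0.21 ± 0.11 in footprints (−0.02 to 0.44, adjusted p = 0.205) did not pass the test. Without control library 1 the footprint change was 0.31 ± 0.09 (edgeR adjusted p = 0.0142).

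HERPUD1 encodes HERP, an ER membrane protein that joins the ubiquitin ligase complex of ER-associated degradation and is known to be short-lived. HERPUD1 mRNA was at 81.8, 76.1 and 87.0 CPM after eIF3e siRNA, against 329, 278 and 231 CPM in control. HERPUD1 footprints were at 138, 112 and 182 CPM after eIF3e siRNA, against 524, 461 and 313 CPM in control. The highest eIF3e siRNA library lay below the lowest control library in both assays. The mRNA fell to 29.2% of control (log2 −1.77 ± 0.12, edgeR adjusted p = 4.71e-08), which was rank 40 from the bottom among 11719 genes. The footprints fell to 33.4% of control (log2 −1.58 ± 0.17, edgeR adjusted p = 2.55e-08), at rank 113 from the bottom among 9228 genes. Each of these calls held in every alternative that was run. Of the genes with a printed promoter match, HSPA5, HSP90B1, PDIA6 and CALR rose in total RNA, HERPUD1 and XBP1 fell, and CANX did not pass the test.

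XBP1 encodes the transcription factor made from the mRNA that IRE1 splices. Its mRNA was at 190, 178 and 185 CPM after eIF3e siRNA, against 258, 216 and 205 CPM in control. The groups did not overlap, and the fall was small, at −0.30 ± 0.11 (edgeR adjusted p = 0.0361). The call was lost in 5 of the 6 fits that each left out 1 library (adjusted p of 0.0542 to 0.109), the exception being control library 3. It was also lost under total-count scaling (−0.13 ± 0.11, adjusted p = 0.376). XBP1 footprints were at 301, 274 and 280 CPM after eIF3e siRNA, against 433, 351 and 291 CPM in control, and these groups overlapped. Their change of −0.33 ± 0.13 did not pass the test (95% interval −0.61 to −0.06, edgeR adjusted p = 0.0878). Counts per gene do not separate spliced from unspliced XBP1, so the activity of IRE1 cannot be read from them.

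**Figure D3:**
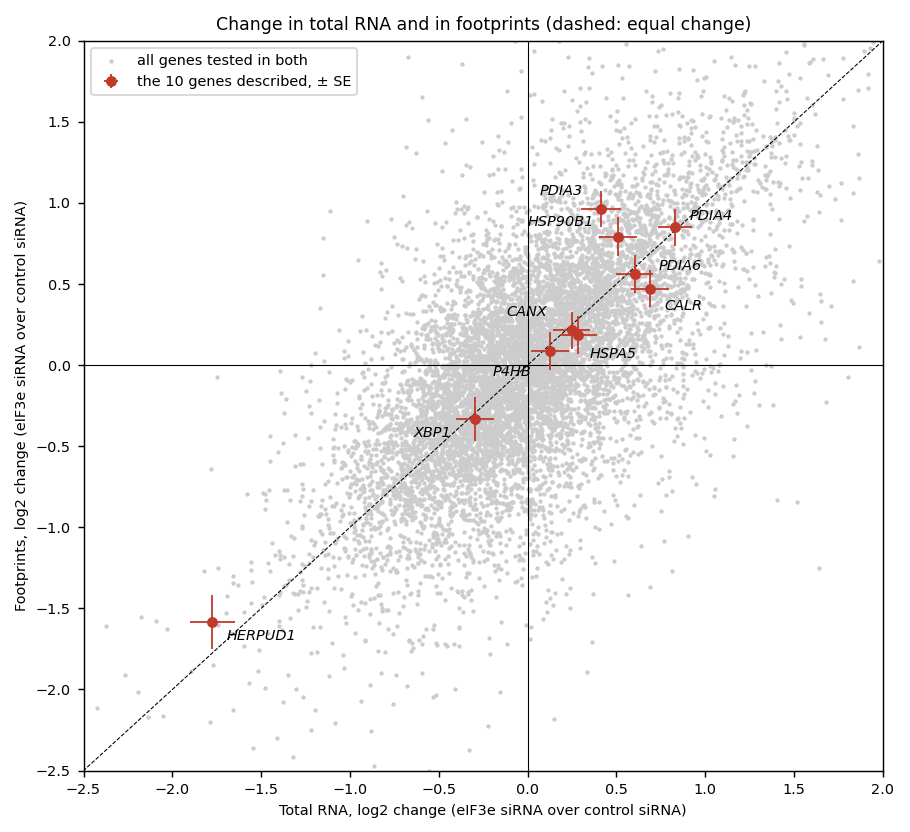
Log2 change in total RNA (horizontal) and in footprints (vertical), eIF3e siRNA over control siRNA, for the 10 genes (red, ± SE) and all 9055 genes tested in both assays (grey), with a dashed line of equal change; 81 genes lie outside the axes. PDIA4 and PDIA6 lie near the line, PDIA3 lies above it with 0.96 in footprints against 0.41 in total RNA, and CALR below it with 0.47 against 0.69.

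Several features of the libraries moved with these values. Of the total RNA counts, 73.1 to 76.8% after eIF3e siRNA lay on symbols that the footprint table also lists, against 64.0 to 71.2% in control. Scaling by total counts in place of TMM raised the median change of all genes in total RNA by 0.159 and kept the direction of all 10 genes in both assays. The control libraries also differed among themselves. Control library 1 was the highest control library for 8 of the 10 genes in total RNA and for 10 of 10 in footprints on the TMM scale, but for 5 and 7 as shares of the library total. Its TMM factor was the lowest of the controls, at 0.857 in total RNA and 0.953 in footprints. Without control library 1, 6 of the 10 genes rose and 1 fell in total RNA, and 7 rose and 1 fell in footprints. The part of the scaling in this order was not tested.

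Reads of near-identical copies could be shared with HSP90B1, PDIA3 and XBP1. In total RNA the pseudogene HSP90B2P had 30, 33 and 33 counts after eIF3e siRNA, against 14, 27 and 13 in control. HSP90B3P had 14, 11 and 10 counts after eIF3e siRNA, against 3, 6 and 3 in control. PDIA3P1 had 33, 27 and 34 counts after eIF3e siRNA, against 14, 22 and 13 in control. PDIA3P2 and XBP1P1 summed to 1 and 3 counts over the 6 libraries. The footprint table used here has no entry for these 5. HSP90B1 and PDIA3 rose in that table, but whether footprints of the copies were counted with them is not known. PDIA3 overlaps ELL3 on the annotation, and ELL3 had 14 to 17 footprints per library after eIF3e siRNA and 10 to 17 in control. PDIA6 overlaps ATP6V1C2 and CANX overlaps CBY3, which had at most 6 and 0 footprints per siRNA library. Whether the counting used strand is not stated in the sources.

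Taken as a sum, the footprints of the 10 genes amounted to 19240, 18460 and 19840 CPM after eIF3e siRNA, against 17460, 14420 and 13690 CPM in control. The means were 19180 ± 692 CPM after eIF3e siRNA and 15190 ± 2000 CPM in control (SD, n = 3 each), and the groups did not overlap. As a share of all footprint counts without scaling this was 1.89, 1.83 and 1.94% after eIF3e siRNA, against 1.66, 1.48 and 1.47% in control. In total RNA the sum was 6813 ± 271 CPM after eIF3e siRNA and 5579 ± 528 CPM in control (SD, n = 3 each). HSPA5 alone made up 26.1 to 26.8% of the summed footprints after eIF3e siRNA, against 28.5 to 30.2% in control. In footprints the share taken by HSPA5 was thus lower while the sum was higher, without overlap between the groups. In total RNA HSPA5 made up 20.5, 21.4 and 18.2% of the sum after eIF3e siRNA, against 20.6, 19.4 and 19.9% in control, and these groups overlapped. No test was made on these sums, because the genes were chosen with results known.

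Whether ribosomes were loaded more or less densely on these mRNAs was asked by the interaction of assay and siRNA in 1 edgeR fit over the 12 siRNA libraries. The fit did not pair libraries by number. None of the 10 genes passed this test of footprints per mRNA. Among all 9055 genes tested 0.144% were higher and 0.166% lower. At an unadjusted p below 0.05 there were 1 of the 10 genes, PDIA3, and 1090 of the 9055. DESeq2's Wald test called PDIA3, and limma-voom called none of the 10. An edgeR fit with a block by siRNA and number, a pairing that the labels do not state, also called PDIA3 higher (adjusted p = 0.0112). That fit called 98 of all genes higher and 68 lower. The median of the 10 genes was −0.036 and that of all genes 0.01.

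PDIA3 stood highest among the 10 in this measure. Dividing the footprint CPM by the total RNA CPM of the library with the same number gave 4.76, 4.37 and 5.22 after eIF3e siRNA, against 3.07, 3.14 and 3.62 in control. The groups did not overlap. The interaction was 0.55 ± 0.15 (95% interval 0.23 to 0.86, edgeR adjusted p = 0.126). HSP90B1 had ratios of 4.95 to 5.28 after eIF3e siRNA and 3.78 to 4.54 in control, with an interaction of 0.28 ± 0.17 (−0.07 to 0.63, edgeR adjusted p = 0.531). CALR lay on the other side, with 2.5, 2.82 and 2.64 after eIF3e siRNA and 3.03, 3.15 and 3.07 in control, and an interaction of −0.22 ± 0.15 (−0.53 to 0.09, edgeR adjusted p = 0.597).

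PDIA4 and HERPUD1, at the ends of the range of mRNA changes, had ratios whose groups overlapped. PDIA4 had 2.36 to 2.52 footprint CPM per RNA CPM after eIF3e siRNA and 2.26 to 2.5 in control (interaction 0.02 ± 0.14, 95% interval −0.27 to 0.31, edgeR adjusted p = 0.978). HERPUD1 had 1.48 to 2.09 after eIF3e siRNA and 1.35 to 1.65 in control (0.19 ± 0.24, −0.31 to 0.70, edgeR adjusted p = 0.813). HSPA5, PDIA6, P4HB, CANX and XBP1 had interactions of −0.10 to −0.04, with 95% intervals that lay between −0.43 and 0.33. Changes within these bounds could not be told from 0 with 3 libraries per group.

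**Figure D4:**
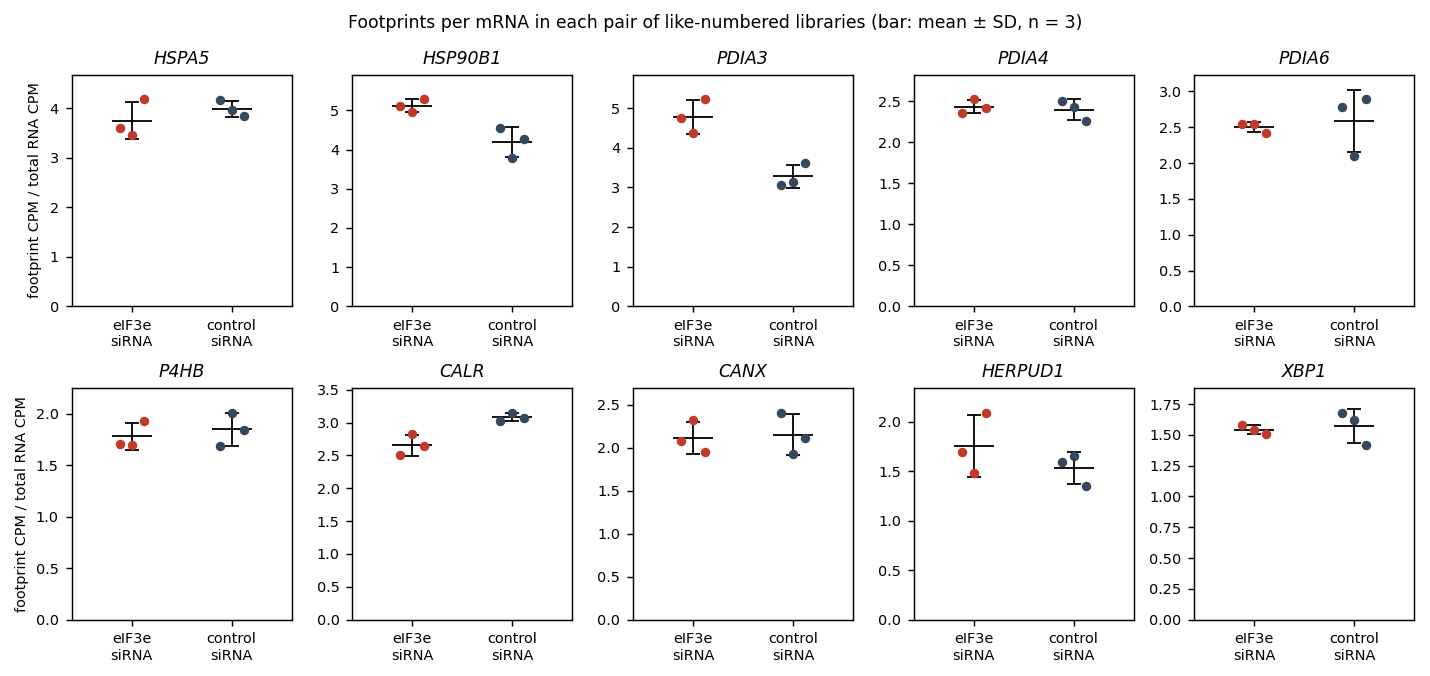
Footprint CPM divided by total RNA CPM (vertical axes, each from 0) for each gene, with 1 point per pair of like-numbered libraries and the mean ± SD of 3, eIF3e siRNA left of control siRNA. PDIA3 is at 4.37 to 5.22 after eIF3e siRNA and 3.07 to 3.62 in control, CALR at 2.5 to 2.82 after eIF3e siRNA and 3.03 to 3.15 in control, and the groups of HSPA5, PDIA4, PDIA6, P4HB, CANX, HERPUD1 and XBP1 overlap.

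The rest of the ER folding and quality control system was read from 7 lists, to be set beside the 18.8% higher and 18.7% lower of all genes in total RNA and the 10.0% and 8.46% in footprints. In total RNA the Hsp70 cochaperones and other ER chaperones had 13 of 23 tested genes higher (56.5%) and 2 lower (median 0.449). SERPINH1, the collagen chaperone, rose by 1.17 ± 0.10, SDF2L1, a BiP partner, by 1.09 ± 0.15 and HYOU1, the nucleotide exchange factor of BiP, by 0.77 ± 0.10. DNAJB9, a BiP cochaperone, fell by 1.04 ± 0.11 on the log2 scale. In footprints 8 of 23 rose (34.8%) and 1 fell (median 0.377), with TOR1A, an ER ATPase, at 1.19 ± 0.19, MANF at 0.96 ± 0.13, HYOU1 at 0.71 ± 0.13 and DNAJB9 at −0.93 ± 0.15. DNAJB9 was lower in both assays, as HERPUD1 was.

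Among the other genes of oxidative folding, 10 of 22 were higher (45.5%) and 1 lower in total RNA (median 0.346). The sulfhydryl oxidase QSOX2 rose by 1.59 ± 0.11, the peroxiredoxin PRDX4 by 1.34 ± 0.12, the isomerase PDIA5 by 0.96 ± 0.14 and ERO1A, which reoxidizes P4HB, by 0.63 ± 0.10. In footprints 11 of 21 rose (52.4%, median 0.498), but 6 without eIF3e siRNA library 3 and 6 without control library 2, with QSOX2 at 1.87 ± 0.15, PDIA5 at 1.28 ± 0.17, PRDX4 at 1.17 ± 0.14 and QSOX1 at 0.65 ± 0.12. The prolyl isomerases and partners of P4HB had 5 of 9 higher in each assay (55.6%, medians 0.376 and 0.552). In total RNA this count was 2 or 3 when eIF3e siRNA library 1 or 3 or control library 2 or 3 was left out and 2 with DESeq2's Wald test, and in footprints it was 3 without eIF3e siRNA library 3. PPIB, the ER cyclophilin, rose by 0.73 ± 0.11 in total RNA and by 0.73 ± 0.11 in footprints. In total RNA FKBP14 rose by 0.62 ± 0.12, while PPIC at 0.38 ± 0.11 and FKBP2 at 0.38 ± 0.12 each passed here but lost the call with DESeq2's Wald test. PPIC mRNA also lost it without eIF3e siRNA library 1 or 3 or control library 2, and FKBP2 mRNA without eIF3e siRNA library 3 or control library 2 or 3. In footprints PPIC rose by 0.94 ± 0.16, P4HA1, a catalytic partner of P4HB, by 0.55 ± 0.12 and FKBP2 by 0.55 ± 0.14, the last not called without eIF3e siRNA library 3 (edgeR adjusted p = 0.0709).

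The list of glycoprotein folding, which holds the enzymes that feed calnexin and calreticulin, had 6 of 15 genes higher in total RNA (40%, median 0.245) and 5 of 15 in footprints (33.3%, median 0.409, but 3 without control library 2). GANAB, the catalytic subunit of glucosidase II, rose by 1.47 ± 0.10 in total RNA and by 1.39 ± 0.11 in footprints. Its partner PRKCSH rose by 0.60 ± 0.10 and 0.41 ± 0.12, and MOGS, glucosidase I, by 0.66 ± 0.10 and 0.73 ± 0.14. The footprint call of PRKCSH was lost without eIF3e siRNA library 3 or control library 2 (edgeR adjusted p up to 0.0941). UGGT2, a folding sensor of the cycle, rose by 0.60 ± 0.12 in total RNA, and the mannosidase EDEM3 by 0.87 ± 0.17 in footprints. Under total-count scaling 10 of the 15 were higher in total RNA, and without control library 3 there were 3 lower.

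ER-associated degradation, to which HERPUD1 belongs, had genes on both sides, and the share higher was near that of all genes in both assays. In total RNA 8 of 40 genes were higher (20%) and 11 lower (27.5%, median −0.116), but 9 and 4 under total-count scaling. UBE2J1, a ubiquitin-conjugating enzyme of the pathway, was at −1.17 ± 0.11 and the deubiquitinase ATXN3 at −1.06 ± 0.17, whereas the erlins ERLIN2 and ERLIN1 were at 1.09 ± 0.12 and 0.64 ± 0.10. In footprints 4 of 39 were higher (10.3%) and 5 lower (12.8%, median −0.126), with AUP1 at 0.73 ± 0.13, ERLIN1 at 0.69 ± 0.14, FAF2 at 0.64 ± 0.13 and SELENOK at −1.09 ± 0.24. The lower count was 1 without eIF3e siRNA library 2 and 2 without control library 1 or 2. SELENOK was at −0.70 without control library 1 and was then not called (edgeR adjusted p = 0.0606).

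Sensors and feedback genes of the response had 5 of 20 higher (25%) and 3 lower (15%) in total RNA (median 0.096), near the shares of all genes, but 8 and 1 under total-count scaling. The higher count was 3 without eIF3e siRNA library 1 or control library 2, and the lower count was 1 without eIF3e siRNA library 2 or control library 2 and 5 without control library 3. BAX, a pore-forming protein of apoptosis, rose by 1.01 ± 0.14 and PPP1R15A (GADD34), which reverses the effect of PERK on initiation, by 0.73 ± 0.13. EIF2AK3, which encodes PERK, fell by 0.67 ± 0.13 on the log2 scale. In footprints 5 of 19 were called higher (26.3%, median 0.167), but 3 under total-count scaling, 3 without eIF3e siRNA library 2 and 2 without control library 2. Among the 5 were PPP1R15A at 1.03 ± 0.20, BAX at 0.74 ± 0.21 and ATF6B, a relative of the sensor ATF6, at 0.40 ± 0.13. BAX footprints lost the call without control library 2 (edgeR adjusted p = 0.051). ATF6B footprints lost it under total-count scaling and without eIF3e siRNA library 1 or 2 or control library 2 (edgeR adjusted p up to 0.173).

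The PERK, ATF4 and CHOP branch had more genes lower than higher. In total RNA 3 of its 14 tested genes were higher (21.4%) and 6 lower (42.9%, median −0.391), but 3 and 4 under total-count scaling. In footprints 4 of 12 were lower (33.3%, median −0.447). DDIT3, which encodes CHOP, did not pass the test in total RNA (0.06 ± 0.25, edgeR adjusted p = 0.859) and was not among the genes tested in footprints. The mRNA of CHAC1, a glutathione-degrading ATF4 target, was at −1.49 ± 0.23 and that of NFE2L2, a transcription factor and PERK substrate, at −0.83 ± 0.12. The subunits of a cystine and amino acid transporter, SLC3A2 and SLC7A11, were at 0.65 ± 0.10 and 0.58 ± 0.11. Footprints of SLC3A2 (0.18 ± 0.11, edgeR adjusted p = 0.291), SLC7A11 (0.44 ± 0.20, 0.136) and CHAC1 (−1.48 ± 0.59, 0.0802) did not pass the test. In footprints NFE2L2 was at −1.47 ± 0.17, ATF4, the transcription factor of the branch, at −1.21 ± 0.37, DDIT4 at −0.83 ± 0.15 and ATF3 at −0.72 ± 0.17. The ATF4 footprint call was lost without eIF3e siRNA library 3 (−0.86, edgeR adjusted p = 0.125), control library 1 (−1.21, 0.0552) or control library 2 (−1.06, 0.131). Every change called in these lists had an edgeR adjusted p below 0.05.

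In footprints per mRNA no gene of the 7 lists passed the edgeR test among 138 tested, with 20 at an unadjusted p below 0.05, 3 called by DESeq2 and none by limma-voom. Under total-count scaling 1 gene of the PERK, ATF4 and CHOP branch and 1 chaperone were lower. List medians ran from −0.28 for the PERK, ATF4 and CHOP branch to 0.145 for glycoprotein folding. The 2 most abundant genes of each list were at −0.47 ± 0.14 (SLC3A2) to 0.44 ± 0.20 (MANF). SLC3A2 was called lower under total-count scaling, by DESeq2's Wald test and with a block by siRNA and number (edgeR adjusted p = 0.0047). The others among these 14 were DDIT4 at −0.46 ± 0.20, HM13 at −0.26 ± 0.16, ERP44 at −0.24 ± 0.15, TMBIM6 at −0.23 ± 0.15, PRKCSH at −0.19 ± 0.15, NUCB1 and OS9 at −0.11 ± 0.15 each, GANAB at −0.08 ± 0.14, HYOU1 at −0.06 ± 0.16, PPIB at 0.00 ± 0.16, QSOX1 at 0.14 ± 0.14 and P4HA1 at 0.22 ± 0.19.

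Footprints from ribosomes bound by eIF3 were compared with those of total lysate, to see on which mRNAs eIF3 stays with the ribosome. With 1 library each there was no test, and intervals are exact 95% intervals of the ratio that cover counting error only. HSP90B1 was the gene most reduced among the 10, with 3032 counts in the eIF3B-bound and 3245 in the eIF3E-bound library, against 4082 in the lysate. Its TMM-scaled ratio to the lysate was 0.624 (0.595 to 0.654) for eIF3B-bound and 0.587 (0.560 to 0.615) for eIF3E-bound footprints, where 15.9% and 8.7% of 3575 genes lay lower (those that reached 100 counts in any of these libraries). PDIA3 was at 0.771 (0.706 to 0.841) and 0.826 (0.759 to 0.898), and CANX at 0.871 (0.830 to 0.913) and 0.728 (0.694 to 0.764).

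Most of the other genes had ratios nearer to 1 for eIF3B-bound and for eIF3E-bound footprints, and XBP1 lay above it. HSPA5 was at 0.988 (0.956 to 1.02) and 0.883 (0.854 to 0.913), on 7676 and 7806 counts against 6529 in the lysate. PDIA4 was at 0.984 and 0.896, PDIA6 at 1.16 and 1.09, P4HB at 0.973 and 0.979, and CALR at 1.05 and 1.07. HERPUD1, on 349 and 340 counts against 298, was at 0.984 (0.841 to 1.15) and 0.843 (0.719 to 0.988). XBP1, on 311 and 309 counts against 197, was at 1.33 (1.11 to 1.59) and 1.16 (0.966 to 1.39).

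A ratio beyond 1.25-fold was used as a mark, a size chosen after the values were seen. In the eIF3B-bound library 1 of the 10 genes, XBP1, was beyond it on the high side and 2, HSP90B1 and PDIA3, on the low side, beside 30.4% and 30.7% of the 3575 genes. In the eIF3E-bound library 2 were beyond it on the low side, HSP90B1 and CANX, beside 27.1%, and no gene of the 10 on the high side, beside 25.4%. The median ratio of the 10 genes was 0.984 for eIF3B-bound and 0.889 for eIF3E-bound footprints, where all genes had 0.996 and 1. The 10 genes together took 1.72% of the eIF3B-bound, 1.6% of the eIF3E-bound and 1.85% of the lysate footprints. HSP90B1 and PDIA3, whose footprints rose after eIF3e siRNA, were both below 1 in both bound libraries. So were CANX, HSPA5 and P4HB, whose footprints did not pass the test, and HERPUD1, whose footprints fell. XBP1, whose footprints did not pass either, was above 1 in both. Of the others whose footprints rose, PDIA4 was at 0.984 and 0.896, and PDIA6 and CALR were above 1 in both. The eIF3B-bound intervals of PDIA4 (0.921 to 1.053) and CALR (0.997 to 1.097) included 1. So did those of HSPA5, P4HB and HERPUD1, and the eIF3E-bound intervals of P4HB and XBP1. Whether these ratios are related to the changes after eIF3e siRNA was not tested.

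**Figure D5:**
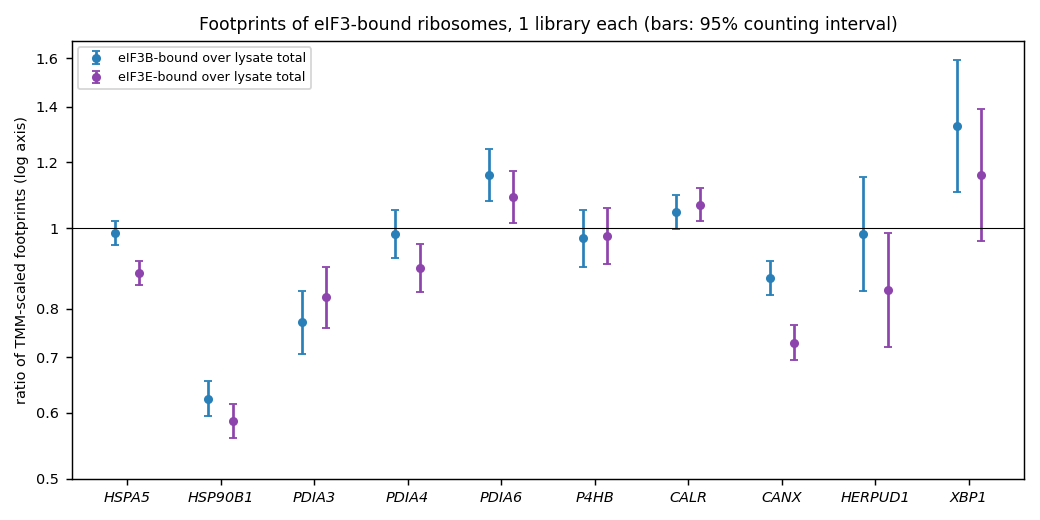
Ratio of TMM-scaled footprints, eIF3B-bound (blue) and eIF3E-bound (purple) over lysate total, for each gene on a log axis, with 1 library each and bars for the 95% counting interval. HSP90B1 is lowest at 0.624 and 0.587, and XBP1 highest at 1.33 and 1.16.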

How the data were processed

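The deposited values are whole-number read counts per gene symbol, 1 table for total RNA and 1 for footprints. Per the labels' protocols, ribosomes were digested with RNase I and isolated on columns, footprints of 26 to 34 nt were cut from gels, and ribosomal RNA was removed. The tools cutadapt 1.18, Bowtie 1.1.2, STAR 2.5 and HTSeq, and hg38 and GRCh38 as builds, are named per the submitters' processing notes. Of the annotation, the counted feature and the strand setting the sources used here say nothing, and multiply mapped reads could move counts between near-identical genes. Columns were mapped to samples from their titles.

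Counts were analysed with edgeR 4.0.16 in R 4.3.3 (TMM factors per assay, filterByExpr at a minimum count of 10, two-sided quasi-likelihood F test with robust settings). P-values were adjusted over all genes tested, with a threshold of 0.05. For footprints per mRNA the test was the assay-by-siRNA term in 1 fit over 12 libraries. Single libraries were scaled by TMM against the lysate. The code was tested on simulated data. Promoters are from RefSeq (GRCh38.p14). The genes named are the 10 members, EIF3E, annotated pseudogenes of the members, and for each list up to 4 called genes by smallest adjusted p (the 2 most abundant if no gene was called). Genes that overlap a member, non-members with a promoter match, and DDIT3 were added after the values were seen. The members and the lists were chosen with earlier results of these data known. Alternatives were DESeq2 1.42.0 size factors and its Wald test, limma 3.58.1 voom with sample weights, total-count scaling, other filters, a replicate block, genes of the footprint table only, and leaving out each library. A gene that the naming rule selects is not reported here.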

Additional observations from a re-analysis of the deposited data

How the results depend on the processing

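None of the changes reported for the 10 genes changed sign where it was called. Uncalled changes could change sign, as that of PDIA4 in footprints per mRNA did (0.02, and −0.19 under total-count scaling). Over the alternatives, 122 of 140 member results in total RNA, 122 of 130 in footprints and 148 of 150 in footprints per mRNA kept their side of the threshold. Those that did not concerned HSPA5, XBP1, PDIA3, CANX and P4HB in total RNA, HSPA5, CANX, XBP1 and CALR in footprints, and PDIA3 in footprints per mRNA. In footprints per mRNA none of the 10 was called in the main fit. The fits without eIF3e siRNA library 1 or 3 or control library 2 called no gene at all there. The 148 of 150 therefore says little about stability. HSPA5 mRNA lost its call with DESeq2 size factors (adjusted p = 0.0553), DESeq2's Wald test (0.0589) and a replicate block by number (0.0563). Under total-count scaling, 1 of the 10 genes was lower in total RNA, CANX and P4HB mRNA passed (edgeR adjusted p = 0.00397 and 0.0196), 1225 of all genes were lower and 2910 higher (70.4% of the calls higher, against 50.1%), 2 of the 10 were lower in footprints, and 3 genes were higher and 89 lower in footprints per mRNA, where the median shifted by −0.209. A minimum count of 50 gave 2 of the 10 lower in footprints (XBP1 with adjusted p = 0.043), CANX mRNA higher (0.0422) and 28 genes lower in footprints per mRNA, and no filter gave 22 higher there. DESeq2's Wald test called 76 genes higher and 66 lower in footprints per mRNA, 1 of the 10 among them (PDIA3, 0.54, adjusted p = 0.0203), and total RNA scaled on genes of the footprint table gave 7 higher. With limma-voom HSPA5 and CANX footprints passed (adjusted p = 0.0397 and 0.0178). Leaving out 1 library gave 1 to 2 of the 10 lower in total RNA, 1 to 2 lower in footprints, and 0 to 10 genes higher and 0 to 12 lower in footprints per mRNA. XBP1 footprints passed without control library 3 (adjusted p = 0.00481). Apart from these counts, 536 of 588 list counts stayed within 1.5 times. Counts of 0 in both fits were taken as unchanged, and most of those for footprints per mRNA were of this kind. Under total-count scaling 20 of 20 single-library ratios moved by less than their interval. The causes were not tested. Whether the numbers of the libraries pair them was not settled by the check used. Correlations of deviations between like-numbered eIF3e siRNA and control libraries were −0.014, 0.192 and 0.297 in total RNA, against −0.318 to 0.186 between unlike numbers. In footprints they were −0.001, 0.026 and 0.004, against −0.019 to 0.014. Between like-numbered footprint and total RNA libraries they were 0.038, 0.043 and 0.042 after eIF3e siRNA and 0.134, 0.002 and 0.119 in control, all positive but not all above 0.1, and between unlike numbers −0.137 to 0.030. A replicate block by siRNA and number, pairing footprints with total RNA, gave 98 genes higher and 68 lower in footprints per mRNA, with 1 of the 10 higher (PDIA3, 0.55, adjusted p = 0.0112) and SLC3A2 lower. A replicate block by number called 5 of the 10 higher and 2 lower in total RNA, and 5 and 1 in footprints. Levels per codon and protein sequences, with their alternatives, were not run, so levels are not compared between genes. Depth limits HERPUD1 and XBP1 in the single libraries, where they had 197 to 349 counts.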

Other observations

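Genes other than the 10 whose RefSeq promoter holds one of the printed elements were looked up after the values were seen. Both strands were searched and genes were counted by symbol, so neighbouring genes could share a match, which was not checked. The counts below are therefore of genes and not of separate sites. ERSE-II stands in 18 further genes, of which 13 were tested in total RNA. Of these 4 were higher and 1 lower, beside 18.8% higher and 18.7% lower among all genes (edgeR, median 0.22, against 0.016 for all genes). Whether such small counts differ from the shares of all genes was not tested. The higher ones were SDF2L1 (1.09 ± 0.15), HYOU1 (0.77 ± 0.10), GYS1, a glycogen synthase (0.60 ± 0.15) and RUVBL2, an AAA+ ATPase (0.56 ± 0.14), and the lower one was PLS3, an actin-bundling protein (−0.69 ± 0.11). In footprints SDF2L1 (1.52 ± 0.33) and HYOU1 (0.71 ± 0.13) were higher and PLS3 (−0.83 ± 0.12) lower among 13 tested. Among all genes 10.0% were higher and 8.46% lower there. HERPUD1, the member with the same element, was lower in both assays, so genes with these letters were found on both sides.

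ERSE stands in 19 further genes, of which 10 were tested in total RNA. Of these 3 were higher and 2 lower (median −0.16), beside 18.8% higher and 18.7% lower among all genes. CRELD2, an ER stress-inducible protein (0.82 ± 0.15), ALG12, a mannosyltransferase of N-glycan assembly (0.77 ± 0.13) and TRIM5 (0.60 ± 0.16) were higher. EIF2A, an initiation factor (−0.999 ± 0.11), and SERP1, a partner of the translocon (−0.66 ± 0.13), were lower. In footprints EIF2A alone of 8 tested passed the test (−0.79 ± 0.19, edgeR adjusted p = 0.00227), beside 8.46% lower among all genes. The element TGACGTG, which XBP1 is known to bind, was searched after the others and stood in 2.4% of genes but in no window of the 9 members with a promoter.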
